A study of Homo sapiens with 4 samples.

Results

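COL17A1 and 7 genes of the hemidesmosome were followed in the established human colon carcinoma line HCT116 after knockdown of RBM25 by shRNA. The 8 genes, of 58735 in the deposited tables, are COL17A1, ITGA6, ITGB4, CD151, DST, PLEC, LAMA3 and LAMB3, each matched by its gene name to 1 row in all 4 count tables. They were selected on measured values in so far as COL17A1 was put forward for its increase in these same libraries, where it ranked 102 of the genes tested by fitted fold change. The other 7 were named for their place in the structure. The difference of COL17A1 between the groups is therefore a description and carries no test here.

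The control_sh group was 2 libraries of HCT116 cells with a control shRNA, and the RBM25_sh group was 2 libraries with an shRNA against RBM25. Both groups were grown in McCoy's 5A medium with serum. Nothing in the labels ties the replicates to separate cultures, so each p-value is set against a spread between libraries that may be technical. RBM25 is an RNA-binding splicing factor that associates with the U1 snRNP.

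Hemidesmosomes rivet the base of an epithelial cell to the basement membrane. The integrin alpha6-beta4 (ITGA6 and ITGB4) binds laminin-332 outside the cell, and the plakins plectin (PLEC) and BPAG1 (an isoform of dystonin, DST) tie its cytoplasmic side to keratin filaments. Collagen XVII (COL17A1, also called BP180) is a transmembrane collagen that strengthens the bond in stratified epithelia, in type I hemidesmosomes, while type II hemidesmosomes of simple epithelia such as the gut are known to lack collagen XVII and BPAG1. CD151 is a tetraspanin that associates with laminin-binding integrins. LAMA3 and LAMB3 encode chains of the laminin-332 trimer.

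The counts per gene summed to between 15528274 and 16982663 in the 4 libraries. CPM below are read counts scaled to a common library size with TMM, FPKM are the deposited values per kilobase of listed gene length, and log2 fold changes are RBM25_sh against control_sh from an edgeR quasi-likelihood fit over 16091 genes, with an adjusted p of 0.05 as the threshold. RBM25 itself stood at 155 and 115 CPM in the control_sh libraries and at 44.0 and 35.7 CPM in the RBM25_sh libraries (−1.76 ± 0.30, edgeR adjusted p = 0.0195), and its adjusted p was 0.119 without RBM25_sh replicate 1 and 0.202 without replicate 2. Of 7 colon epithelial markers, all but VIL1 were measured, and their summed level was 3404 and 4210 CPM in the control_sh libraries and 4406 and 5516 CPM in the RBM25_sh libraries. Among the 6 measured, KRT8 was the highest in CPM, and 4 had log2 fold changes above 0. EPCAM (−0.06 ± 0.26) and CDH1 (−0.23 ± 0.27) lay below 0, and none of the 6 passed the threshold. VIL1 was at 0 in 3 libraries, with 1 count in the other. Of 13 markers of non-epithelial cells, CD3E, CDH5, COL1A2 and LUM were at 0 throughout, and the sum of 41.9 and 64.2 CPM in the control_sh libraries and 38.5 and 49.95 CPM in the RBM25_sh libraries was mostly COL1A1. Of the 7 squamous keratinocyte markers KRT1 and IVL were at 0, and the summed level was 15.495 and 46.3 against 25.0 and 27.1 CPM, mostly KRT10. In bulk RNA, a change in the number of expressing cells and a change of RNA per cell cannot be told apart.

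COL17A1 was low in both control_sh libraries and higher in both RBM25_sh libraries. It had 79 and 112 counts in the control_sh libraries, or 5.00 and 6.25 CPM. In the RBM25_sh libraries it had 331 and 427 counts, or 22.2 and 27.2 CPM. Both knockdown libraries thus lay well above both controls, and the lower of them was 3.55-fold above the higher control. The mean went from 5.62 ± 0.885 CPM to 24.7 ± 3.56 CPM (SD, n = 2 each), 4.39-fold higher, with a fitted log2 fold change of 2.13 ± 0.32 (SE). The gene lies on the minus strand of chromosome 10, from 104031286 to 104085957 (GRCh38), and the deposited counts are totals over its 11 annotated transcripts. The miRNA gene MIR936 lies within it and had no counts.

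**Figure D1:**
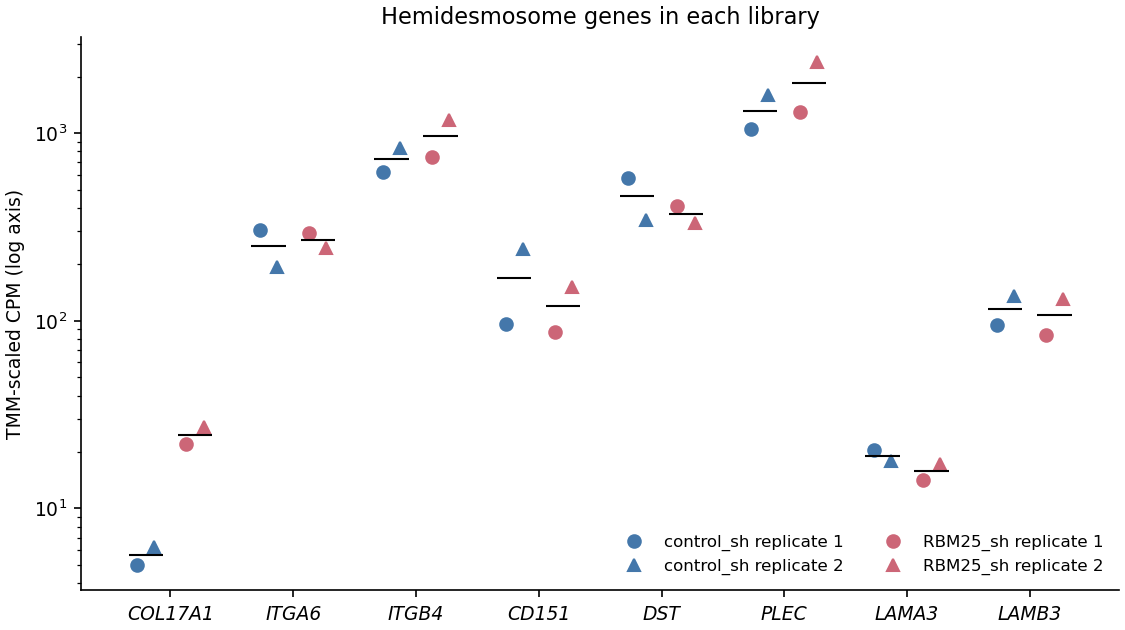
TMM-scaled CPM (log axis) of the 8 members in each library, with circles for replicate 1, triangles for replicate 2 and bars for group means. COL17A1 is separated between the groups, at 5.00 and 6.25 CPM in control_sh and 22.2 and 27.2 CPM in RBM25_sh, while most other genes overlap.

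Per length, COL17A1 remained a minor transcript next to the integrin. The mean FPKM in the control_sh libraries was 103 ± 21.5 for ITGB4, 74.5 ± 21.5 for PLEC, 41.0 ± 24.9 for CD151, 36.7 ± 11.6 for ITGA6 and 23.6 ± 5.73 for LAMB3. It was 10.5 ± 3.74 for DST, 1.25 ± 0.125 for LAMA3 and 0.764 ± 0.118 for COL17A1 (SD, n = 2 each). Within each of the 4 libraries ITGB4 was above PLEC, and CD151 and ITGA6 were both above LAMB3. CD151 and ITGA6 changed places, with ITGA6 the higher in replicate 1 of both groups and CD151 in replicate 2. DST is divided by a listed length of 42341 bases that spans all of its isoforms, so its FPKM is low if a short isoform prevails.

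The place of COL17A1 relative to LAMA3 turned over between the groups. In FPKM, COL17A1 had 0.681 and 0.848 in the control_sh libraries, below LAMA3 at 1.34 and 1.16 in the same libraries. In the RBM25_sh libraries it had 3.17 and 3.71, above LAMA3 at 0.978 and 1.14. ITGB4 exceeded COL17A1 by 135 ± 7.27 times in control_sh and by 40.3 ± 7.16 times in RBM25_sh (ratio of FPKM, SD, n = 2 each).

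The start region of COL17A1 is shown because this is the member that moved, with those of LAMA3 and LAMB3, laminin-332 chains that were not called, for comparison. The windows hold 250 bases before to 50 after a RefSeq start (GRCh38.p14), read 5′ to 3′ on the gene's strand. They lie at chr10:104085831-104086130 (minus strand) for COL17A1, chr18:23872770-23873069 (plus strand) for an internal start of LAMA3, and chr1:209651325-209651624 (minus strand) for 1 of 3 LAMB3 starts. Capitals mark matches, on either strand, to the AP-1 motif TGANTCA, the TATA motif TATAAA and the TEAD motif GGAATG.
COL17A1: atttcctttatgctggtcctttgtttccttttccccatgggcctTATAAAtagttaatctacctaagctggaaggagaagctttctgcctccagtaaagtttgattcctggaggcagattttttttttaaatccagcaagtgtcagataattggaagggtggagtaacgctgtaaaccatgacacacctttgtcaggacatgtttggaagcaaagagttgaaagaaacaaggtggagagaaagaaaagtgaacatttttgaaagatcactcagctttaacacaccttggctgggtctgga
LAMA3: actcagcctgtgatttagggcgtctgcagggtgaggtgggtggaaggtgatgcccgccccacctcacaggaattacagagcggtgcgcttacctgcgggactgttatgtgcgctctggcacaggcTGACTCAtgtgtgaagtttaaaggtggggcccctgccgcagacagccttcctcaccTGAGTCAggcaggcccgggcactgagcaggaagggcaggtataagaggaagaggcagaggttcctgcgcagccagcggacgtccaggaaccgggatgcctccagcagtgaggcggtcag
LAMB3: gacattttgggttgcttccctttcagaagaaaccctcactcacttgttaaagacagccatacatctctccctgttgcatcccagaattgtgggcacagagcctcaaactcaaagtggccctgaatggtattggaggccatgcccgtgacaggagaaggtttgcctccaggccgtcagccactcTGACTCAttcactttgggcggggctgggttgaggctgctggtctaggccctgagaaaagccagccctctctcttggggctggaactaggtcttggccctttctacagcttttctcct

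The COL17A1 window was AT-rich, with 40.7% GC against a median of 58.7% over 35116 windows of the same length. It held 1 TATA match, at −206 from the start, and 11.5% of all windows have a TATA match. It held no match to AP-1, TEAD or the SP1 motif GGGCGG. LAMA3 held 2 AP-1 matches and LAMB3 held 1, each beside 1 SP1 match that is not capitalised. The windows of the other 2 LAMB3 starts held no AP-1 match. Among windows not shown, an ITGA6 window held a TATA match at −32 from its start. A DST window held an AP-1 match at 25 and a TEAD match at −249. Over all windows 7.71% held at least 1 AP-1 match. TEAD matches occurred in 14.03% of windows and SP1 matches in 45.0%. The matches are letters in these windows and were not tested as sites. The RefSeq table held windows for COL17A1, ITGA6, DST, LAMA3 and LAMB3.

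Neither chain of the integrin pair passed the threshold without a GC correction. With the correction described further on ITGB4 passed and ITGA6 did not, beside 28.9% of all genes called. ITGB4, the beta4 chain with the long cytoplasmic tail that recruits plectin, had 619 and 835 CPM in the control_sh libraries and 748 and 1182 CPM in the RBM25_sh libraries. The groups overlapped, with a difference of 0.41 ± 0.31 (edgeR adjusted p = 0.478). Leaving out 1 library moved it from 0.081 (RBM25_sh replicate 2) to 0.72 (RBM25_sh replicate 1), never past the threshold. ITGA6, its alpha partner, had 305 and 195 CPM against 294 and 243 CPM, again overlapping, with a difference of 0.10 ± 0.30 (edgeR adjusted p = 0.877). Per length ITGB4 stood above ITGA6 in every library, by 3.05 ± 1.54 times in control_sh and 3.58 ± 1.58 times in RBM25_sh (ratio of FPKM, SD, n = 2 each). ITGB4 lies on chromosome 17 from 75721328 to 75757818 and ITGA6 on chromosome 2 from 172427354 to 172506282, both on the plus strand. ITGA6 shares exon bases with 3 antisense genes, of which AC078883.1 had 21 to 41 counts and the other two at most 6.

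The other known receptor for laminin-332, the integrin alpha3-beta1, was lower in its alpha chain in both RBM25_sh libraries, short of the threshold. ITGA3 had 768 and 1057 CPM in the control_sh libraries and 410 and 582 CPM in the RBM25_sh libraries. The groups did not overlap, as in 51.8% of all genes tested, but the difference of −0.88 ± 0.30 missed the threshold (edgeR adjusted p = 0.135). With a block on the replicate number ITGA3 was called (−0.88 ± 0.20, edgeR adjusted p = 0.00014), in a fit that called 5722 genes. With the block and a GC correction it was called too (−0.65 ± 0.18, edgeR adjusted p = 0.0014), among 6440 genes. It passed without control_sh replicate 1 (−1.08 ± 0.29, edgeR adjusted p = 0.00341) and with the GC correction described further on (−0.66 ± 0.16, edgeR adjusted p = 0.0141). It did not pass without control_sh replicate 2 (−0.63, edgeR adjusted p = 0.182), RBM25_sh replicate 1 (−0.63, 0.862) or RBM25_sh replicate 2 (−1.12, 0.371). ITGB1, the beta chain it shares with many integrins, differed by −0.07 ± 0.28. The FPKM of ITGA3 over that of ITGA6 was 2.65 ± 1.37 in control_sh and 1.26 ± 0.471 in RBM25_sh (SD, n = 2 each), with 1.68 and 3.62 in the control_sh and 0.930 and 1.596 in the RBM25_sh libraries. These ratios also did not overlap, though narrowly, with 1.68 as the lowest in control_sh and 1.596 as the highest in RBM25_sh. Replicate 2 had the higher ratio in both groups, and the longest transcripts of ITGA3 and ITGA6 hold 61.3% and 42.9% GC.

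CD151 varied more between libraries of a group than between groups. It had 95.7 and 241 CPM in the control_sh libraries and 87.2 and 152 CPM in the RBM25_sh libraries, overlapping, with a difference of −0.49 ± 0.43 (edgeR adjusted p = 0.553). Leaving out control_sh replicate 1 gave a call of lower (−1.002 ± 0.33, edgeR adjusted p = 0.0231), and leaving out control_sh replicate 2 gave a difference of 0.32 ± 0.34. The gene, on chromosome 11 from 832843 to 839831, shares 257 exon bases with POLR2L on the opposite strand. POLR2L had 429 and 1912 counts in control_sh and 659 and 1163 in RBM25_sh, so it was higher in the same libraries as CD151, and without a stated strand setting reads of the shared bases cannot be told apart. Of the 4 other tetraspanin partners measured, CD9, CD63, CD81 and CD82, none passed the threshold, with differences from −0.30 ± 0.26 in CD9 to 0.58 ± 0.43 in CD82. With the GC correction CD82 was called higher (0.83 ± 0.25, edgeR adjusted p = 0.0326), beside 28.9% of all genes called, and CD9, CD63 and CD81 were not called.

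The 2 plakin members went opposite ways without passing the threshold. PLEC, which encodes plectin, was the most abundant member by CPM, with 1047 and 1589 CPM in the control_sh libraries and 1294 and 2399 CPM in the RBM25_sh libraries. These values overlapped, and the difference was 0.49 ± 0.34 (edgeR adjusted p = 0.452). Without control_sh replicate 2 PLEC was called higher (0.82 ± 0.27, edgeR adjusted p = 0.0402). It was not called without control_sh replicate 1 (0.23), RBM25_sh replicate 1 (0.88) or RBM25_sh replicate 2 (0.013, edgeR adjusted p = 0.995). DST had 576 and 345 CPM in control_sh against 411 and 331 CPM in RBM25_sh, overlapping, with a difference of −0.31 ± 0.31 (edgeR adjusted p = 0.612). The counts sum 15 annotated transcripts of PLEC and 35 of DST, so the epithelial BPAG1 form of DST was not measured apart from the others.

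Neither laminin-332 chain, LAMA3 or LAMB3, passed the threshold. LAMA3 had 20.4 and 17.8 CPM in the control_sh libraries and 14.2 and 17.3 CPM in the RBM25_sh libraries, a narrow separation downwards (−0.28 ± 0.30, edgeR adjusted p = 0.637). LAMB3 had 95.1 and 135 CPM against 84.2 and 131 CPM, overlapping (−0.10 ± 0.32, edgeR adjusted p = 0.895). Leaving out 1 library moved LAMA3 between −0.39 (without RBM25_sh replicate 2) and −0.12 (without RBM25_sh replicate 1), and LAMB3 between −0.41 and 0.21 in the same fits. Per length the chains were unequal, with LAMB3 at 19.2 ± 6.49 times LAMA3 in control_sh and 21.1 ± 3.64 times in RBM25_sh (ratio of FPKM, SD, n = 2 each). The mean ratios in the 2 groups differed by less than the SD between libraries. LAMA3 is divided by a listed length of 14678 bases that covers both its long and its short form.

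Of the 8 members 1 was past the edgeR threshold, COL17A1 itself, and none passed as lower. Over all 16091 genes 3.05% passed, 0.653% higher and 2.40% lower. Since COL17A1 was chosen from this contrast, nothing is read from the count. Groups did not overlap in CPM for COL17A1, higher, and LAMA3, lower, which is 2 of 8 beside 51.8% of all genes tested. The median log2 fold change of the 8 members was 0.00 and that of all genes −0.04.

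The spread between libraries of a group followed base composition in the members, as in the genes at large. In the control_sh group replicate 2 exceeded replicate 1 by 0.43 in ITGB4, 0.51 in LAMB3, 0.60 in PLEC and 1.33 in CD151 (log2 CPM), whose longest transcripts hold 58.9% to 67.0% GC. It lay below replicate 1 by −0.65 in ITGA6 and −0.74 in DST, at 42.9% and 41.3% GC. The RBM25_sh pair gave 0.66, 0.64, 0.89 and 0.80 for the first 4 and −0.27 and −0.31 for ITGA6 and DST, so the sign was the same in both groups. COL17A1, at 55.9% GC, gave 0.32 and 0.29, and LAMA3, at 50.7%, gave −0.20 and 0.28. Across 10378 genes, which share these 4 libraries, the Spearman correlation of this difference with GC content was 0.82 in control_sh and 0.84 in RBM25_sh. For the difference in mean log2 CPM, RBM25_sh minus control_sh, the same correlation was −0.31.

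**Figure D2:**
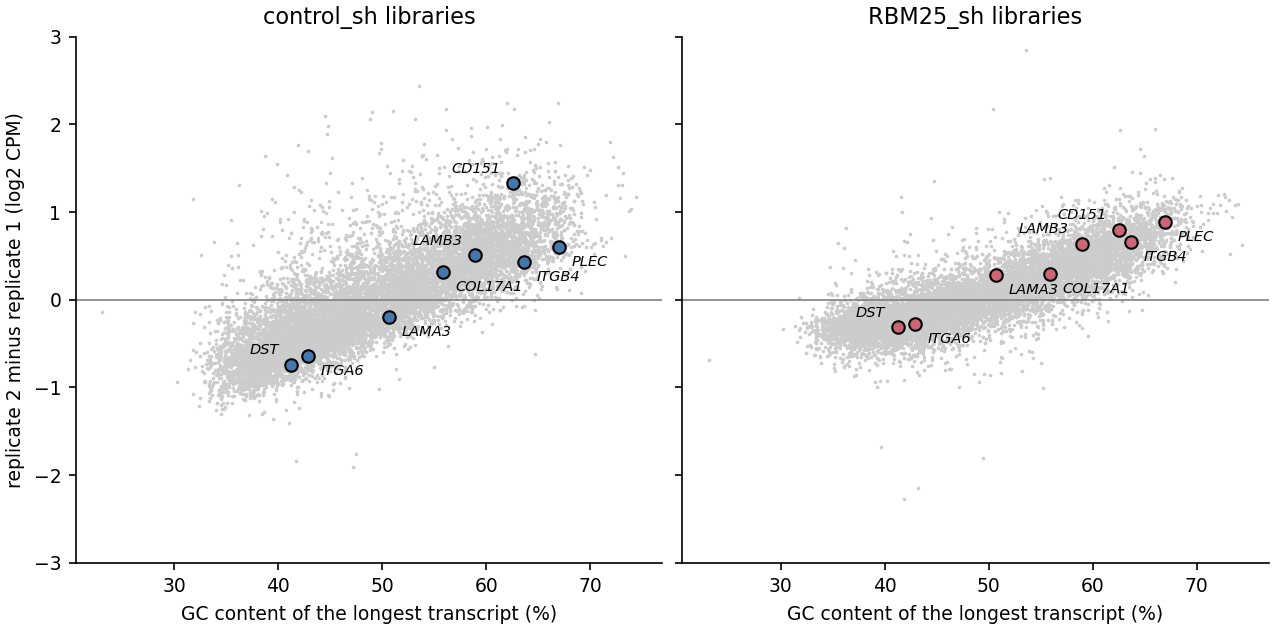
Difference between replicate 2 and replicate 1 (log2 CPM) against the GC content of each gene's longest transcript (%), in control_sh (left) and RBM25_sh (right), with 10378 genes in grey and the 8 members in colour. The axis ends at 3 on either side, which leaves out 2 grey points in control_sh, and the members lie along the rising band, from DST and ITGA6 to PLEC.

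After a GC correction ITGB4 and PLEC passed the threshold as higher. The correction subtracts, per library, a smooth curve on GC content. The curve is fitted to each gene's deviation from its mean log2 CPM over the 4 libraries. The correction also removes any GC trend between the groups. On the corrected log2 CPM scale ITGB4 had 9.54 and 9.20 in the control_sh libraries and 9.97 and 9.99 in the RBM25_sh libraries, a fitted difference of 0.60 ± 0.17 (edgeR adjusted p = 0.0284). PLEC had 10.37 and 10.07 against 10.84 and 10.93, a difference of 0.65 ± 0.18 (edgeR adjusted p = 0.0251). Both had overlapped before, and neither did now. COL17A1 had 2.45 and 2.37 against 4.71 and 4.70, with a fitted log2 fold change of 2.32 ± 0.18.

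The remaining 5 members did not pass after the correction. DST was at −0.39 ± 0.16 (edgeR adjusted p = 0.0978), with 9.01 and 8.68 against 8.5004 and 8.43 corrected log2 CPM, which no longer overlapped. LAMA3 (−0.20 ± 0.19), CD151 (−0.21 ± 0.19), ITGA6 (0.06 ± 0.15) and LAMB3 (0.12 ± 0.13) overlapped between groups, and LAMB3 changed sign. So 2 of the 7 members other than COL17A1 were called, both higher. With the correction 28.9% of all genes were called, 14.5% higher and 14.4% lower, and the groups did not overlap in 66.4%, against 3 of these 7 members. The share of the 7 called was thus close to that of all genes.

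**Figure D3:**
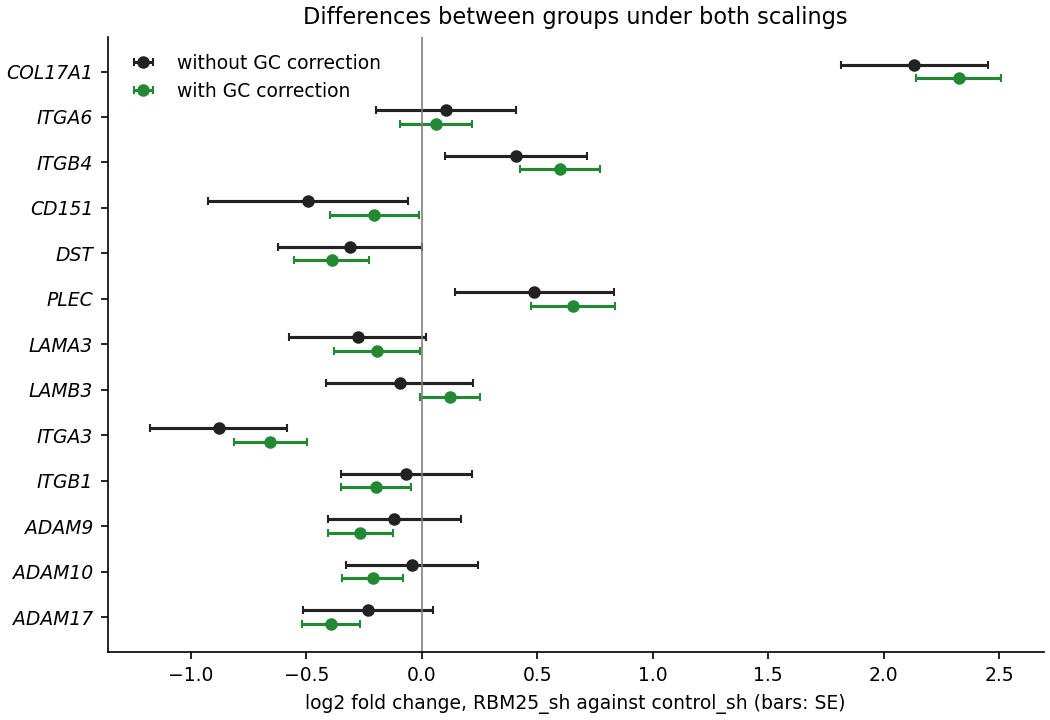
Fitted log2 fold change of RBM25_sh against control_sh with its SE (bars) for the members, the integrin chains ITGA3 and ITGB1 and the proteases ADAM9, ADAM10 and ADAM17, without and with the GC correction. COL17A1 stands at 2.13 and 2.32, the other members between −0.49 and 0.65.

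The proteases known to release the ectodomain of collagen XVII were not called without the GC correction. ADAM17 had 105 and 76.8 CPM in control_sh and 81.2 and 73.8 CPM in RBM25_sh (−0.23 ± 0.28). ADAM9 differed by −0.12 ± 0.29 and ADAM10 by −0.04 ± 0.29, and the groups of all 3 overlapped. With the GC correction ADAM17 was called lower at −0.39 ± 0.13 (edgeR adjusted p = 0.0435), while ADAM9 (−0.27 ± 0.14) and ADAM10 (−0.21 ± 0.13) were not. The wider protease list had 8 of 9 genes measured, with none called without the correction. With it 3 of the 8 were called, beside 28.9% of all genes. These were ADAM17, PLAU (−0.91 ± 0.13, edgeR adjusted p = 0.0016) and BMP1 (0.46 ± 0.13, edgeR adjusted p = 0.0226).

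Among 80 listed adhesion genes outside the members, 67 were measured, and 2 were called lower and none higher, both of them kinases that signal with alpha6-beta4. MST1R, which encodes the receptor kinase RON, fell from 87.5 and 113 CPM in the control_sh libraries to 22.1 and 31.1 CPM in the RBM25_sh libraries (−1.91 ± 0.31, edgeR adjusted p = 0.0163). FYN, a Src family kinase that acts downstream of the beta4 chain, fell from 27.7 and 29.9 CPM to 13.1 and 9.81 CPM (−1.33 ± 0.30, edgeR adjusted p = 0.0491). Neither gene's groups overlapped, as in 51.8% of all genes tested. FYN lost its call with DESeq2 size factors (edgeR adjusted p = 0.0568), with limma on log2(FPKM + 1) (adjusted p = 0.1002) and log2(FPKM + 0.1) (adjusted p = 0.0982), and without RBM25_sh replicate 1 (edgeR adjusted p = 0.244) or replicate 2 (0.428), and MST1R lost it without RBM25_sh replicate 1 (edgeR adjusted p = 0.202). The count of adhesion genes called changed with the library left out, as did the count over all genes. The 2 of 67 are close to the share of all genes given above, and the median over the 67 genes was −0.15. TP63, a transcription factor that drives hemidesmosome genes in squamous epithelium, was at or below 0.510 CPM in every library.

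By list, members included, the laminin chains had a median below 0 and the desmosome and focal adhesion genes medians above 0, with no gene of these lists called. Of 10 measured laminin chains 1 was above 0 (median −0.41), of 7 desmosome genes 5 (median 0.40) and of 12 focal adhesion genes 8 (median 0.30). The 8 basement membrane genes had a median of −0.31, the 12 matrix receptors 0.01 and the 7 plakins −0.31. With the GC correction 27 of the 67 genes outside the members were called, 12 higher and 15 lower, beside the 28.9% of all genes. Among the laminin chains LAMB1 (−0.73 ± 0.13), LAMB2 (−0.86 ± 0.13) and LAMA4 (−1.59 ± 0.44) were then lower and none higher. Of 12 focal adhesion genes 5 were higher and none lower, among them the parvin gene PARVA (1.21 ± 0.14). Over all genes 14.5% were higher and 14.4% lower. Of the 12 matrix receptors 2 were higher and 3 lower, of the 7 plakins 2 and 2, and of the 7 desmosome genes 2 and 0. In the kinase list 4 of 6 measured genes were lower and none higher. LAMB1, LAMB2, LAMA4 and PARVA were picked out once their values were known.

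**Figure D4:**
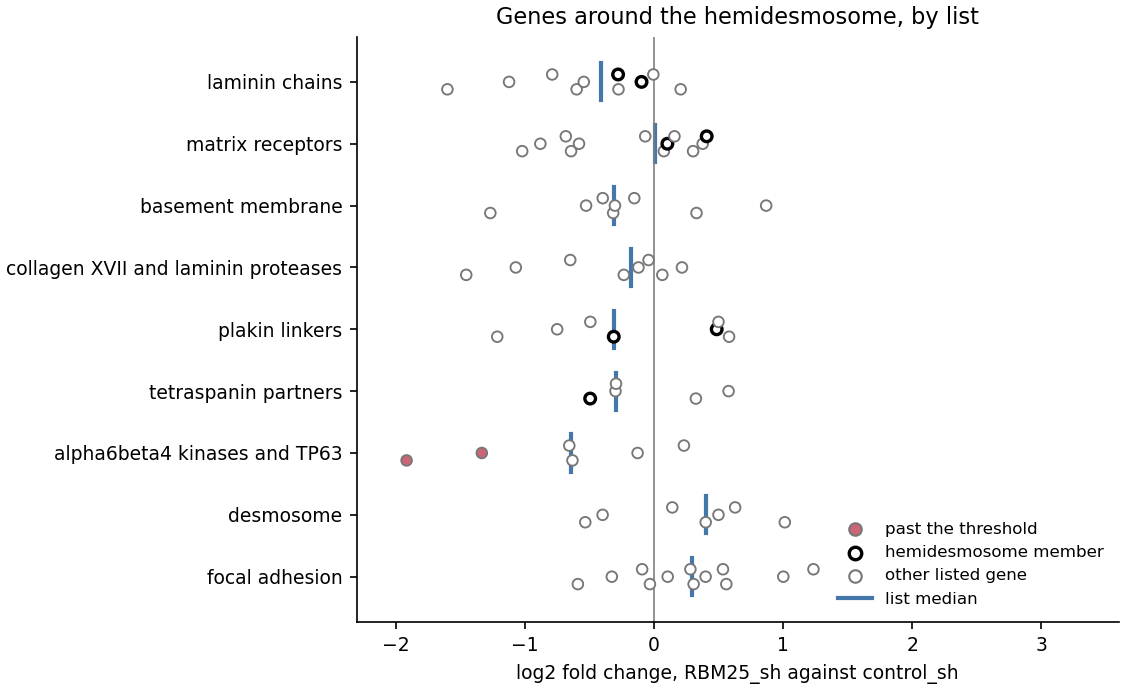
Fitted log2 fold change of each measured gene (points) in 9 lists around the hemidesmosome, with list medians as blue bars, members outlined in black and genes past the edgeR threshold filled. The 2 filled points are MST1R and FYN in the kinase list; COL17A1 is in none of these lists and is not drawn.

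The squamous keratins that pair with type I hemidesmosomes in skin were close to absent. KRT5 had 4 and 2 counts in the control_sh libraries and 11 and 26 in the RBM25_sh libraries, and it was called with the GC correction (edgeR adjusted p = 0.0207) but not without it (edgeR adjusted p = 0.101). KRT14 had no counts in control_sh and 4 in each RBM25_sh library. KRT10, from the same marker list, was at −0.33 ± 0.45 and was not called with the correction either (−0.18 ± 0.35). KRT8, a keratin of simple epithelia, had 1622 and 2091 CPM in control_sh and 2409 and 3153 CPM in RBM25_sh (0.58 ± 0.27, edgeR adjusted p = 0.248). It was called higher with the GC correction (0.77 ± 0.18, edgeR adjusted p = 0.011). KRT18 (0.45 ± 0.18, edgeR adjusted p = 0.0893) and KRT19 (0.45 ± 0.16, edgeR adjusted p = 0.0598) were not called with it. The correction called 28.9% of all genes, 14.5% higher.

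The 5 genes with the pattern over the 4 libraries most like that of COL17A1 were AXIN2, TSPAN1, CEMIP, EPDR1 and FNDC10. Likeness was the Euclidean distance between centred log2 CPM, over 10005 protein-coding genes with an average log2 CPM of at least 3. The distances were 0.26 for AXIN2, 0.34 for TSPAN1, 0.36 for CEMIP, 0.42 for EPDR1 and 0.45 for FNDC10. AXIN2, a feedback inhibitor of WNT signalling, had 8.54 and 9.21 CPM in control_sh and 30.6 and 36.8 CPM in RBM25_sh. TSPAN1, a tetraspanin like CD151, had 7.15 and 8.70 against 38.7 and 34.1 CPM. Each of the 5 was thus low in both control_sh libraries and high in both RBM25_sh libraries. With 4 libraries this measure mostly reads the step between the groups.

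The hexamer CGGGCA, to which RBM25 is known to bind in BCL2L1 RNA, was counted on the sense strand of each gene's longest GENCODE 29 transcript. COL17A1 had none in 5689 bases, as did 58.9% of the genes tested. ITGB4 had 5, or 0.845 per kilobase, and PLEC 10, or 0.656 per kilobase, at the 94.7 and 91.4 percentiles of the genes tested. LAMA3 had 5 and ITGA6 2, and LAMB3, DST and CD151 had 1 each. ITGB4 and PLEC are also the members richest in GC, at 63.7% and 67.0%, and the motif is itself rich in GC. Introns were not searched, and a match is not a binding site.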

How the data were processed

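RNA from 4 libraries of HCT116 cells was measured, 2 control_sh and 2 RBM25_sh, grouped by sample title. The deposited counts are whole-number counts per gene made by the authors. The deposited FPKM are those counts over each gene's listed length, times a constant of the library. Tools named, without their roles, in the submitters' processing notes are TopHat2 2.0.9, Bowtie2 2.0.6, Cuffdiff 2.1.1 and Cufflinks 2.1.1. How reads were counted, and with which strand setting, is not stated there. All 58735 gene positions equal GENCODE 29 on GRCh38.

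Counts were fitted with edgeR 4.0.16 in R 4.3.3: filterByExpr, TMM, group as the only term, a two-sided quasi-likelihood F test with 2 residual degrees of freedom, and Benjamini-Hochberg adjustment over all genes. The SE is the log2 fold change over the root of F. The fit was tested on simulated counts with known changes, placed in genes with a mean count of at least 100. The counts were drawn independently with 1 common biological coefficient of variation, 0.252. The fit recovered 25 of 100 changes of 2-fold and 97 of 100 changes of 4-fold, and called 8 unchanged genes. The simulation held no GC trend between libraries, so these numbers may not carry over to the real libraries. A gene that was not called may therefore still differ by 2-fold. GC correction used a lowess (span 0.3), per library, on the GC content of the longest transcript. The curve was fitted to each gene's deviation from its mean log2 CPM (prior count 2) and entered as offsets. Levels between genes were compared in FPKM without a test. Alternatives used DESeq2 1.42.0 and limma 3.58.1.

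The members and lists were chosen with earlier results of these data known. Named genes were the 8 members, RBM25, ITGA3, ITGB1, ADAM9, ADAM10, ADAM17, listed genes past the threshold, and the 5 genes nearest to COL17A1 in pattern; KRT8 and others named from the lists were added after their values were seen. 1 gene of the rule is not reported here. Libraries of a group differed beyond counting noise (chi-square per degree of freedom of 70.9 in control_sh and 27.7 in RBM25_sh), so none was treated as a duplicate.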

Additional observations from a re-analysis of the deposited data

How the results depend on the processing

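COL17A1, chosen for its increase here and so described without a test, had log2 fold changes over the 12 alternatives from 1.33 (log2(FPKM + 1), where the pseudocount shrinks a low gene) to 2.32 and edgeR values without 1 library from 1.99 to 2.30. RBM25 lost its call with limma on log2(FPKM + 1) (−1.46) and without either RBM25_sh library (−1.90 and −1.58). ITGB4 ran from 0.081 to 0.72, PLEC from 0.013 to 0.88, LAMA3 from −0.39 to −0.12 and ITGA3 from −1.12 to −0.63 without 1 library.

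Counts of genes called over all genes, members called and other adhesion genes called were 491, 1 and 2. They were 1438, 1 and 8 without a filter, 1085, 1 and 8 with the DESeq2 Wald test, and 4652, 3 and 27 with the GC correction. With limma on FPKM they were 215, 1 and 1 (pseudocount 1) and 268, 1 and 1 (pseudocount 0.1), and with DESeq2 size factors the adhesion genes numbered 1. With a replicate block they were 5722, 1 and 33, and with the block and the GC correction 6440, 3 and 35; the labels give the replicates only a number, and the difference between replicates 2 and 1 had a correlation of 0.76 between the groups over genes. Without 1 library they ranged from 204 to 2389, 1 to 2 and 0 to 15. The second member was CD151, lower at −1.002, without control_sh replicate 1, and PLEC, higher at 0.82, without control_sh replicate 2. Of all calls 21.4% were higher, against 50.04% after the GC correction.

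Signs turned for ITGA6 (−0.18 without control_sh replicate 2, −0.02 without RBM25_sh replicate 1), LAMB3 (0.12 with the GC correction, also with the block, 0.18 without control_sh replicate 2, 0.21 without RBM25_sh replicate 1), DST (0.12 without control_sh replicate 1) and CD151 (0.32 without control_sh replicate 2). They turned for ITGB1 (0.21 without control_sh replicate 1, 0.12 without RBM25_sh replicate 2), ADAM9 (0.16 and 0.06 in the same fits), ADAM17 (0.02 without control_sh replicate 1) and ADAM10 (0.21 and 0.12 in those fits, and 0.0066 with DESeq2 size factors, 0.0066 with DESeq2, 0.0071 and 0.0083 with limma on FPKM). Without 1 library the values ran from −0.18 to 0.47 for ITGA6, −0.41 to 0.21 for LAMB3, −0.64 to 0.12 for DST, −1.002 to 0.32 for CD151, −0.30 to 0.21 for ITGB1, −0.35 to 0.16 for ADAM9, −0.25 to 0.21 for ADAM10 and −0.45 to 0.023 for ADAM17. The cause was not tested. COL17A1 had the fewest counts of the members in control_sh, 79 and 112, and 2 libraries a group limit every test.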
